A study of Mus musculus with 8 samples.

Results

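The olfactory receptor (Olfr) genes of mouse chromosome 7 were examined for their contact with the nuclear envelope during differentiation of 3T3-L1 preadipocytes, an established mouse line that turns into fat cells in culture, and upon knockdown of the nuclear envelope transmembrane proteins Tmem120a and Tmem120b. All protein-coding genes of the mm9 gene annotation on chromosome 7 whose symbol starts with Olfr were taken, which gave 240 of the 22367 protein-coding genes on 21 chromosomes. LaminB1-DamID had been used to map lamina associated domains (LADs) in 4 conditions, each with 1 library from the LaminB1-Dam fusion and 1 from free Dam. The Dam proteins were delivered by lentivirus in every condition. Preadipocytes (day 0) are labelled untreated, with no shRNA named. The 3 adipocyte conditions were transduced at day 6 and harvested at day 9, and came from stable lines carrying a control non-target shRNA, a Tmem120a shRNA, or shRNAs against both Tmem120a and Tmem120b. By these labels the preadipocytes differ from the adipocytes both in differentiation and in the control shRNA. The results text of the paper also gives a shorter time from transduction to DNA isolation for preadipocytes, whereas its methods give a single time. These differences cannot be told apart. The lists hold positions only, so neither the extent of knockdown nor the cell type could be checked from them, and the read depth is unknown.

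Olfactory receptors are G protein-coupled receptors that detect odorants. They form the largest gene family of the mouse, lie in long tandem arrays with few other genes between them, and fall into an ancient class I and a larger class II. A sensory neuron of the nose expresses a single receptor allele, and in most other tissues the arrays are silent and packed as heterochromatin, often against the nuclear lamina. In DamID, Dam methylates the adenine of GATC near the tethered LaminB1, so the ends of mapped domains fall at GATC sites. A few members have described roles outside the nose, among them Olfr78, Olfr544 and Olfr558. Others are landmarks of olfactory genetics: Olfr2 is the octanal receptor I7, Olfr17 is P2 and Olfr6 is M50. Olfr64 to Olfr69 flank the β-globin genes.

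The 240 members fell into 7 clusters when neighbours within 1 Mb were joined. The largest, from Olfr543 to Olfr692 (chr7:109625287-112517869, 2893 kb), held 129 members. The next, from Olfr693 to Olfr519 (chr7:113821048-116037934, 2217 kb), held 65. Smaller clusters ran from Olfr522 to Olfr541 near the distal end (19 members, chr7:147347838-147891166), from Olfr310 to Olfr292 (15 members, chr7:93417240-93843894) and from Olfr1344 to Olfr1350 (8 members, chr7:6392547-6523630). Olfr291 and Olfr290 (chr7:92002083-92065238) and Olfr520 and Olfr521 (chr7:106883655-106916640) formed the 2 remaining pairs. Alignment of the translated proteins separated 131 class I from 109 class II members, with a median identity of 45.2% within class I, 41.3% within class II and 30.8% between them. All 129 members of the largest cluster were class I, so it is called the class I cluster below. The only other class I members were Olfr503 and Olfr504, inside the Olfr693 to Olfr519 cluster.

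Genome sequence is shown for LAD borders that split the class I cluster in the places where the results below turn, in mm9, plus strand, with the GATC of the border in capitals. Of the LAD borders inside the clusters, 8 lay in the body of a member itself, at 7 positions. Of all the border positions inside the clusters, 94 were used in a single list and 2 in a pair of lists. Both shared positions are printed here, as the Olfr550 border and the border beside Olfr648. The Olfr550 site (chr7:109727483-109727542) was where a preadipocyte LAD began and where a Tmem120a/b knockdown LAD ended. The site beside Olfr648 (chr7:111329495-111329554) ended a LAD in both knockdowns. Inside Olfr649 (chr7:111340922-111340981) an adipocyte LAD ended, and the next adipocyte LAD began at chr7:111520721-111520780. Inside Olfr665 (chr7:112030112-112030171) a Tmem120a/b knockdown LAD began, inside Olfr670 (chr7:112108935-112108994) a preadipocyte LAD ended, and inside Olfr675 (chr7:112172577-112172636) a Tmem120a knockdown LAD ended.
Olfr550 border: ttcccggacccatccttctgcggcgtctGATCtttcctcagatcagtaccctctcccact
Border beside Olfr648: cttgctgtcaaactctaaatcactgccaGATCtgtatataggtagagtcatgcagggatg
Olfr649 border: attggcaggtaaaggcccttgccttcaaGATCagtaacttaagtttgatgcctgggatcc
Start of the adipocyte LAD before Olfr651: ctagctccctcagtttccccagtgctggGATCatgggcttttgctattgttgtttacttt
Olfr665 border: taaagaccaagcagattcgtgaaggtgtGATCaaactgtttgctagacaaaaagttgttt
Olfr670 border: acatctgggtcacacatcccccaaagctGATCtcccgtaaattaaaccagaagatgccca
Olfr675 border: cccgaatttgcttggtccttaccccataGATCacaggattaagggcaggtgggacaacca

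A gene was called in a LAD when any base of its body overlapped one. By this rule 219 of the 240 members were in a LAD in preadipocytes, against 26.2% of all protein-coding genes. In adipocytes 229 were in a LAD (23.3% of all genes), upon Tmem120a knockdown 219 (27.5%) and upon Tmem120a/b knockdown 205 (29.5%). The members thus ranged from 91.2% in preadipocytes and 95.4% in adipocytes down to 85.4% in the Tmem120a/b knockdown, while over all genes the adipocyte share was the lowest and the Tmem120a/b share the highest. There were 195 members in a LAD in all 4 lists (19.3% of all genes), 40 whose state differed between lists (16.7%, against 16.9% of all genes), and 5 in a LAD in no list (63.7%). The median share of the gene body in LADs was 100% for members and 0% for all genes in every list. Member bodies are short, with a median of 966 bp against 15427 bp for all genes, so partial overlap matters more for the background. By transcription start, members in LADs numbered 217, 228, 217 and 204 in the same order of lists, against 23.3%, 21.2%, 22.6% and 23.8% of all genes. Each list comes from 1 pair of libraries and neighbouring members share LADs, so members are not independent. No interval or test is given, and the values describe these lists.

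**Figure D1:**
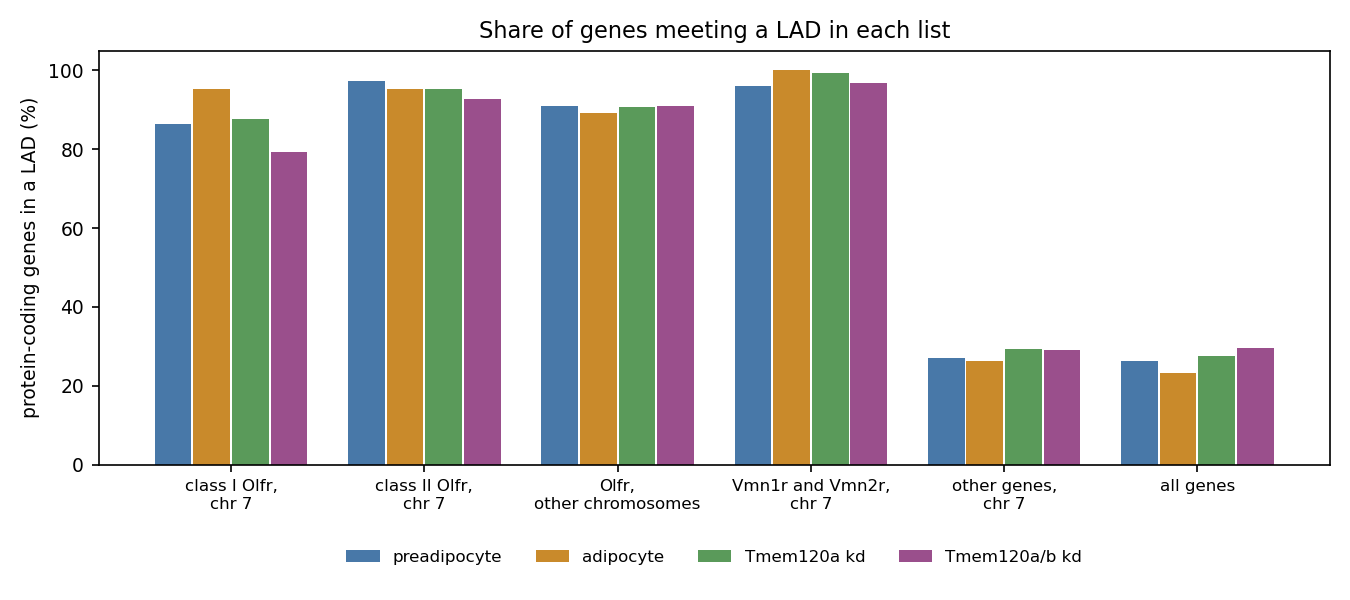
Share of protein-coding genes (%) with any base in a LAD in each of the 4 lists, for the class I and class II Olfr genes of chromosome 7 and for comparison sets (kd, knockdown; bars are single lists without replicates). Class I shares range from 79.4% to 95.4%, class II shares from 92.7% to 97.2%, and the share over all genes from 23.3% to 29.5%.

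Olfr genes of the other chromosomes (873 genes) were in LADs at 91.1%, 89.1%, 90.6% and 91.1% in preadipocytes, adipocytes and the Tmem120a and Tmem120a/b knockdowns. The 286 Olfr genes of chromosome 2 were at 99.7%, 100%, 99.3% and 100%. The 154 vomeronasal receptor genes of chromosome 7 (Vmn1r and Vmn2r), another silent chemoreceptor family, were at 96.1%, 100%, 99.4% and 96.8%. Other genes of chromosome 7 were at 27%, 26.2%, 29.3% and 29.1%. LADs covered 45.5%, 46.8%, 45.4% and 44.7% of chromosome 7, in 211, 145, 342 and 400 LADs. The knockdown lists thus cut the chromosome into more LADs with little change in the length covered.

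Over the 7 clusters, summed to 6307 kb, LADs covered 87.1% before and 93.8% after differentiation, 87.8% upon Tmem120a knockdown and 82.3% upon Tmem120a/b knockdown. Counted per cluster and summed, LADs met numbered 14, 9, 24 and 21 in the same order, and 9, 7, 10 and 10 when gaps under 50 kb were closed. In all lists but the Tmem120a/b knockdown, a single LAD spanned the clusters of Olfr291 and Olfr290 and of Olfr310 to Olfr292. These sums count it for each of them. Distinct LADs that held members numbered 12, 8, 20 and 19. The LAD with the most members held 62 in preadipocytes (Olfr557 to Olfr67, 1179 kb) and 79 in adipocytes (Olfr558 to Olfr649, 1492 kb). Upon Tmem120a knockdown it held 63 (Olfr558 to Olfr64, 1194 kb), and upon Tmem120a/b knockdown 37 (Olfr591 to Olfr67, 722 kb). Stretches of the clusters outside LADs numbered 11 before and 7 after differentiation, 22 upon Tmem120a knockdown and 18 upon Tmem120a/b knockdown. Their summed length was 816, 388, 770 and 1116 kb, and they left 21, 11, 21 and 35 members outside LADs. The Tmem120a knockdown list had more stretches than the Tmem120a/b list and a like median length (21.3 against 18.5 kb), and the longest was 157 kb against 701 kb.

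**Figure D2:**
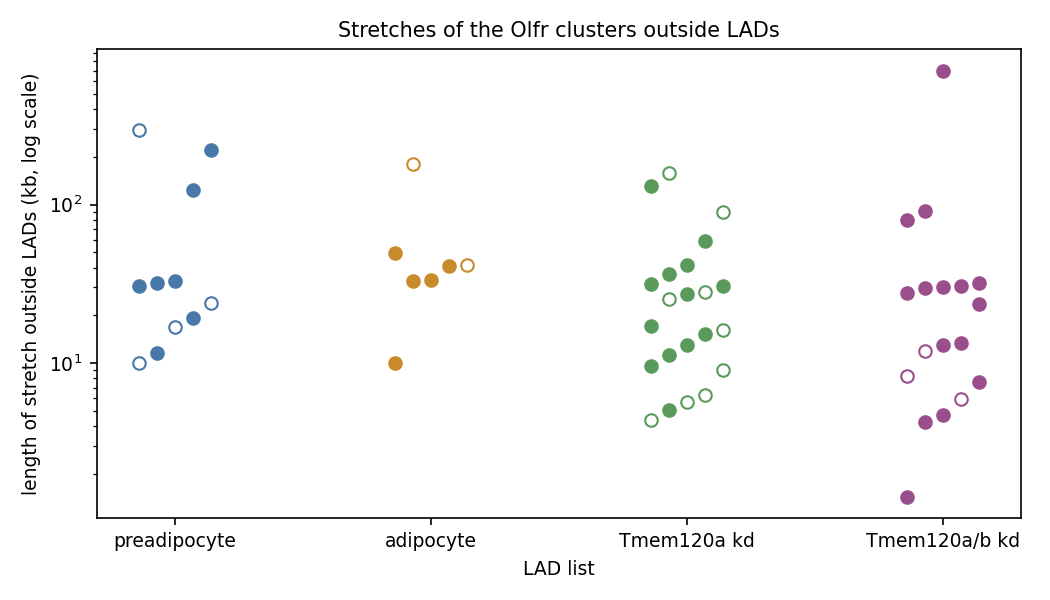
Length in kb (log scale) of every stretch of the 7 clusters outside LADs in each list (kd, knockdown; each point is 1 stretch, filled where members lie in it and open where none do; sideways spread is for legibility). The longest stretch per list, from left to right, measures 295, 180, 157 and 701 kb.

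The class I cluster differed most between lists in the kb covered and in the number of members in LADs. By percent of span the short cluster of Olfr520 and Olfr521 differed more, with 0%, 0%, 70.8% and 95.6% in LADs. LADs covered 73.9% of the class I cluster before and 89.1% after differentiation, 78.3% upon Tmem120a knockdown and 66.4% upon Tmem120a/b knockdown. Of its 129 members, 111, 123, 113 and 102 were in a LAD, and it met 8, 4, 11 and 8 LADs. Of the 40 members whose state differed, 29 lay in this cluster. The Olfr693 to Olfr519 cluster stayed near full coverage, with 99.2%, 100%, 98.3% and 93.7% in LADs and 65, 65, 64 and 59 of its 65 members in a LAD. In number of LADs it differed more than the class I cluster between adipocytes and the Tmem120a/b knockdown, from 1 LAD to 8, with 6 upon Tmem120a knockdown.

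**Figure D3:**
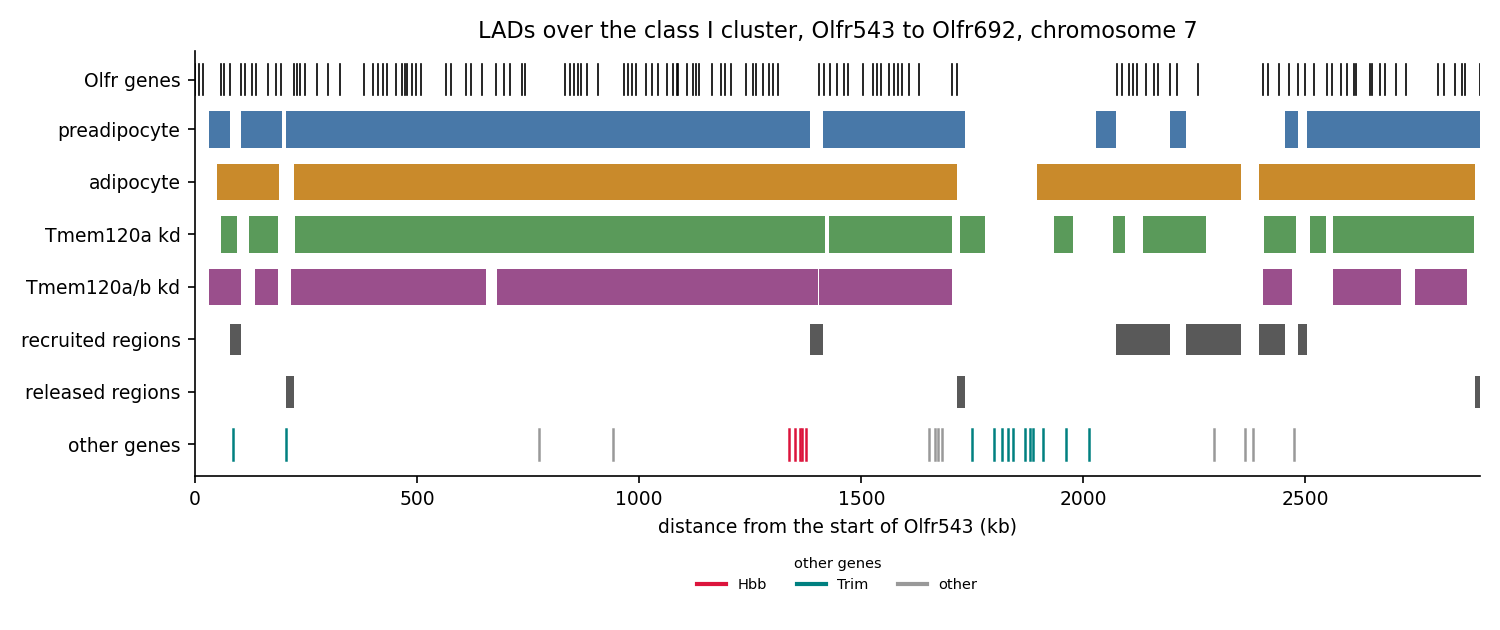
Map of the class I cluster, with distance from the start of Olfr543 in kb on the horizontal axis. Tracks show the 129 Olfr genes, the LADs of each list (kd, knockdown), the recruited and released regions that meet an Olfr gene, and the other protein-coding genes, with Hbb in red, Trim in teal and others in grey. LADs cover 89.1% of the span in adipocytes and 66.4% in the Tmem120a/b knockdown, where the open stretch of 701 kb lies.

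During differentiation, 15 members were in a LAD in adipocytes and not in preadipocytes, against 1.88% of all genes. All 15 were class I and lay in 4 runs of neighbouring members within the class I cluster. The longest was a run of 9, Olfr651 to Olfr659 (chr7:111701398-111820186), followed by a run of 4, Olfr664 to Olfr667, and by the single genes Olfr66 and Olfr671. With only LADs of at least 100 kb counted, 27 members had this state (2.25% of all genes). Every one of the 15 had 0% of its body in a preadipocyte LAD and 100% in an adipocyte LAD. These receptors lay in 4 of the preadipocyte stretches outside LADs, of which the longest was 222 kb (chr7:111857498-112079162). The longest preadipocyte stretch of all, 295 kb (chr7:111358542-111653222), held no member but many of the Trim genes described below. In adipocytes the run from Olfr651 to Olfr664 lay in a single LAD of 459 kb (chr7:111520752-111979767) together with Olfr661, which was in a LAD in preadipocytes too.

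In the opposite direction, 5 members were in a LAD in preadipocytes and not in adipocytes (4.81% of all genes). They were Olfr556 and Olfr557, Olfr692 at the distal end of the class I cluster, and Olfr523 and Olfr524 near the proximal end of the Olfr522 to Olfr541 cluster. Each had 100% of its body in a preadipocyte LAD and 0% in an adipocyte LAD. With gaps under 50 kb closed, the count was 3 (Olfr523, Olfr524 and Olfr692), against 4.97% of all genes. In adipocytes the nearest LAD lay 0.129 kb from Olfr524, 0.675 kb from Olfr557, 3.28 kb from Olfr556, 8.93 kb from Olfr692 and 25.8 kb from Olfr523. Olfr524 and Olfr557 thus stood within 1 kb of a LAD. Among genes in a preadipocyte LAD, 2.28% of members were outside adipocyte LADs, against 18.3% of all genes. Among genes in an adipocyte LAD, 6.55% of members were outside preadipocyte LADs, against 8.06% of all genes, with 12% in class I (15 of 125) and 0 of 104 in class II.

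The deposited differential regions follow from the LAD lists by position. Regions released in differentiation are preadipocyte LAD sequence outside adipocyte LADs, and recruited regions are the reverse. A recruited region was met by 18 members (3.08% of all genes), all class I: Olfr549, Olfr550, Olfr66, Olfr651 to Olfr659, Olfr664 to Olfr667, Olfr670 and Olfr671. Of these, 15 were outside preadipocyte LADs altogether, and Olfr549, Olfr550 and Olfr670 straddled a preadipocyte border. Among the 6 recruited regions that hold members, of 8 in the clusters, the longest, 123 kb (chr7:111698731-111821493), held the 9 genes Olfr651 to Olfr659. Its share in LADs was 66% upon Tmem120a knockdown and 0% upon Tmem120a/b knockdown. The next of these 6 (chr7:111857498-111979767, 122 kb) held Olfr664 alone and was at 36.6% and 0%.

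The remaining recruited regions differed among themselves in the knockdowns. The region of Olfr665 to Olfr667 (chr7:112021114-112079162) was 79.9% in LADs upon Tmem120a knockdown and 84.4% upon Tmem120a/b knockdown. The region of Olfr66 (chr7:111009075-111039880) was at 100% and 86.2%, and that of Olfr549 and Olfr550 (chr7:109703533-109727513) at 66% and 100%. The region of Olfr670 and Olfr671 (chr7:112108966-112128260) was at 0% in both. Of the 18 recruited members, 11 (61.1%) were in a LAD upon Tmem120a knockdown and 5 (27.8%) upon Tmem120a/b knockdown, against 77.2% and 72.7% of all genes that meet a recruited region.

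A released region was met by 5 members (5.76% of all genes): Olfr557, Olfr649, Olfr692, Olfr523 and Olfr524. The region of Olfr523 and Olfr524 (chr7:147359363-147388828, 29.5 kb) was fully in LADs in both knockdowns, as in preadipocytes. That of Olfr692 (chr7:112507812-112520017) was at 0% in both. The region of Olfr557 (chr7:109829788-109848461) was at 0% upon Tmem120a knockdown and 37.8% upon Tmem120a/b knockdown, and that of Olfr649 (chr7:111340953-111358541) at 67.3% and 0%. The 4 released regions thus differed from each other in the knockdowns.

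In the Tmem120a knockdown, 13 members were outside LADs that were in a LAD in control adipocytes (1.95% of all genes), in 8 runs. They were Olfr1344 and Olfr1336 at the start of the first cluster, Olfr550, Olfr551, Olfr649, Olfr653 to Olfr655, Olfr665, Olfr670, Olfr671, Olfr676 and Olfr711. No run held more than 3 members. The 8 stretches around them ranged from 5.04 kb (Olfr711) to 131 kb (Olfr665), and the others measured between 15.3 kb (Olfr676) and 41.7 kb (Olfr653 to Olfr655). When gaps under 50 kb between LADs were closed, the count fell to 3 (1.25% of members, against 1.67% of all genes), namely Olfr1344, Olfr1336 and Olfr665. With only LADs of at least 100 kb counted, it rose to 30 (2.86% of all genes). Conversely, 3 members were in a LAD in the Tmem120a knockdown and not in adipocytes (6.13% of all genes): Olfr521, Olfr523 and Olfr524. With only LADs of at least 100 kb counted there were 0 (1.84% of all genes).

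In the Tmem120a/b knockdown, 28 members in a LAD in control adipocytes were outside LADs (2.1% of all genes), in 10 runs. The longest was a run of 12, Olfr649 to Olfr664, which lay in the open stretch of 701 kb (chr7:111329526-112030142). This stretch was 68.4% in LADs in adipocytes, and the adipocyte LAD of 459 kb before Olfr665 had no overlap with any Tmem120a/b knockdown LAD. A second run held Olfr670 to Olfr676, 5 members in an open stretch of 91.3 kb (chr7:112095737-112187036). Olfr551, Olfr552, Olfr589, Olfr66 and Olfr686 made up the rest of the class I cluster. In the Olfr693 to Olfr519 cluster the 6 members were Olfr709-ps1, Olfr711, Olfr2, Olfr713, Olfr17 and Olfr514. Olfr711, Olfr2 and Olfr713 shared an open stretch of 79.7 kb (chr7:114111538-114191285). With gaps under 50 kb closed the count was 20 (1.82% of all genes), and all 20 were among the 28. With only LADs of at least 100 kb counted it was 46 (3.59% of all genes).

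Of genes in an adipocyte LAD, 12.2% of members were outside LADs in the Tmem120a/b knockdown (28 of 229), against 9.02% of all genes, 8.75% of other chromosome 7 genes and 1.93% of Olfr genes elsewhere. By transcription start the order turned, with 12.3% of members (28 of 228) against 12.7% of all genes. The share was 17.6% in class I (22 of 125) and 5.77% in class II (6 of 104). In the Tmem120a knockdown it was 5.68% of members against 8.37% of all genes and 2.19% of Olfr genes elsewhere, and by transcription start 6.14% against 11.5% of all genes. In the gaining direction, 4 members were in a LAD in the Tmem120a/b knockdown and not in adipocytes (8.36% of all genes): Olfr521, Olfr557, Olfr523 and Olfr524. Between the knockdowns, 19 members were in a LAD with Tmem120a knockdown alone and not in the Tmem120a/b knockdown (4.28% of all genes), and 5 the other way (6.36%), namely Olfr1344, Olfr1336, Olfr550, Olfr557 and Olfr665.

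**Figure D4:**
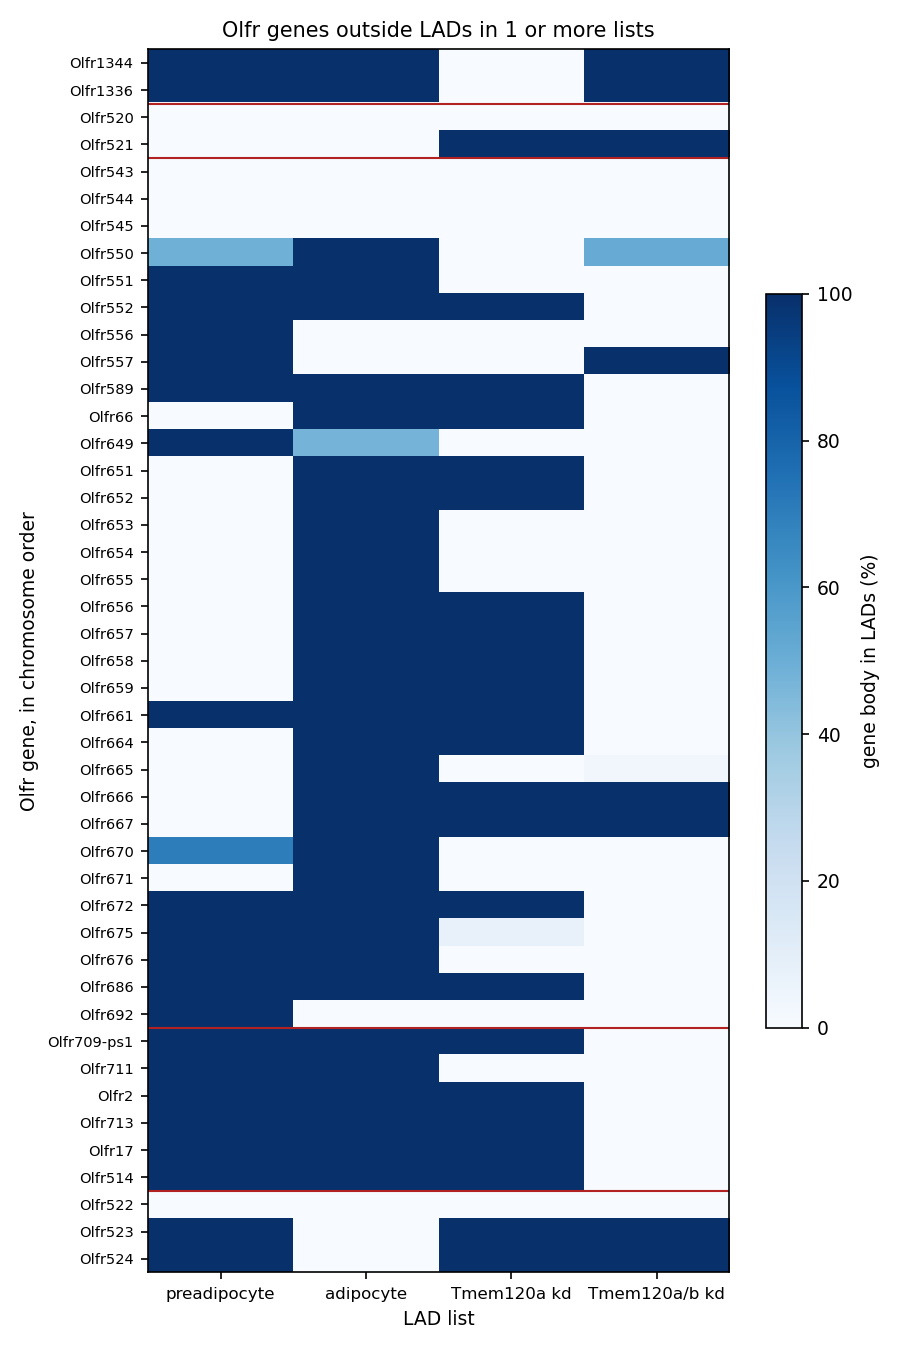
Share of the gene body in LADs (%, colour) in each list (kd, knockdown) for the 45 Olfr genes of chromosome 7 outside LADs in 1 or more lists, in chromosome order with red lines between clusters. Most cells are at 0% or 100%, the block from Olfr651 to Olfr664 is filled in adipocytes and empty in the Tmem120a/b knockdown, and Olfr550, Olfr649, Olfr665, Olfr670 and Olfr675 hold a border.

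These comparisons share the adipocyte list, so the states of the members over the 4 lists are set side by side. Olfr66, Olfr651, Olfr652, Olfr656 to Olfr659 and Olfr664 (8 members, 0.371% of all genes) were in a LAD in adipocytes and the Tmem120a knockdown and outside in preadipocytes and the Tmem120a/b knockdown. With gaps under 50 kb closed, Olfr66 was in a LAD in all 4 lists and the others kept their state. With only LADs of at least 30 kb counted, Olfr651 and Olfr652 were in a LAD in adipocytes alone. Olfr653, Olfr654, Olfr655 and Olfr671 were in a LAD in adipocytes alone (0.434% of all genes). None of these kept that state with gaps under 50 kb closed. Olfr653 to Olfr655 were then in a LAD in the Tmem120a knockdown too, and Olfr671 was outside in the Tmem120a/b knockdown alone. Olfr666 and Olfr667 were outside in preadipocytes alone (0.765% of all genes), and Olfr665 was at 0%, 100%, 0% and 3.26% of its body. A further 11 members were outside in the Tmem120a/b knockdown alone (0.863% of all genes): Olfr552, Olfr589, Olfr661, Olfr672, Olfr675, Olfr686, Olfr709-ps1, Olfr2, Olfr713, Olfr17 and Olfr514. With gaps under 50 kb closed, Olfr552, Olfr589, Olfr686, Olfr709-ps1, Olfr17 and Olfr514 were in a LAD in all 4 lists. The others kept their state. Olfr551, Olfr649, Olfr670, Olfr676 and Olfr711 were outside in both knockdowns and inside in preadipocytes and adipocytes (0.434% of all genes). None of these kept that state with gaps under 50 kb closed. Olfr551 was then in a LAD in all 4 lists, and the others were outside in the Tmem120a/b knockdown alone. Olfr556 and Olfr692 were in a LAD in preadipocytes alone (1.59% of all genes). With gaps under 50 kb closed, Olfr556 was in a LAD in all 4 lists and Olfr692 kept its state.

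Members with a border in the body had intermediate values. Olfr550 had 48.8% of its body in LADs before and 100% after differentiation, 0% upon Tmem120a knockdown and 51.2% upon Tmem120a/b knockdown. Olfr649 was at 100%, 47.4%, 0% and 0%, and Olfr670 at 70.3%, 100%, 0% and 0%. Olfr675 was at 100%, 100%, 7.32% and 0%. The state of these genes depends on where the overlap limit is set. Olfr549 (77.1% in preadipocytes) and Olfr547 (17.8% in the Tmem120a knockdown) also held a border and counted as in a LAD in all 4 lists.

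Of the 16 receptors listed for a role outside the nose or in olfactory genetics, 12 (75%) had the same state in all 4 lists, 10 in LADs and 2 outside, against 200 of all 240 members (83.3%). The 4 whose state differed were Olfr692, described above, Olfr2, Olfr17 and Olfr66. Olfr78 and Olfr558, at the proximal end of the long LAD of the class I cluster, had 100% of the body in a LAD in every list, as did Olfr690 and Olfr691 near the distal end of the cluster. The border lay 68.8 kb from the middle of Olfr78 before and 50.1 kb after differentiation, 49.5 kb upon Tmem120a knockdown and 57.2 kb upon Tmem120a/b knockdown. Olfr544 and Olfr545, together with Olfr543 the first genes of the class I cluster, were outside LADs in all 4 lists. The nearest LAD was 20.3, 38.0, 47.2 and 18.7 kb from Olfr544 in the order preadipocyte, adipocyte, Tmem120a and Tmem120a/b knockdown. Olfr2 and Olfr17 were in a LAD of 1433 kb before and 2897 kb after differentiation and of 237 kb upon Tmem120a knockdown, and in none upon Tmem120a/b knockdown. There the nearest LAD was 32.9 kb from Olfr2 and 4.68 kb from Olfr17. Olfr6 was in a LAD in every list, but that LAD measured 1433, 2897, 45.7 and 40.2 kb.

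Around the β-globin locus, Olfr67, Olfr68 and Olfr69 on the proximal side and Olfr64 and Olfr65 on the distal side were in LADs in all 4 lists, as were all 5 Hbb genes between them. Olfr66, which lies between the Hbb genes and Olfr64, had 0%, 100%, 100% and 0% of its body in LADs. In the Tmem120a/b knockdown it fell in an open stretch of only 4.24 kb (chr7:111026801-111031044), the nearest LAD being 0.289 kb away. In preadipocytes the stretch measured 30.8 kb and the nearest LAD was 9.13 kb away.

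The 5 members outside LADs in every list stood at the starts of clusters: Olfr543, Olfr544 and Olfr545 in the class I cluster, Olfr520 and Olfr522 as the first genes of theirs. The pair Olfr520 and Olfr521 stood far from other LADs, the nearest being 2557 kb from Olfr520 in preadipocytes and 2758 kb from Olfr521 in adipocytes. In the Tmem120a knockdown a LAD of 59.2 kb (chr7:106893282-106952502) covered Olfr521, and in the Tmem120a/b knockdown a LAD of 35.7 kb (chr7:106885094-106920839). The latter began 0.488 kb from Olfr520. Olfr522 was 10.4, 39.9, 10.1 and 3.60 kb from the nearest LAD in the order used above. In the first cluster Olfr1344 and Olfr1336 were in LADs in all lists but the Tmem120a knockdown, in which an open stretch of 30.5 kb (chr7:6392547-6423051) held them. The clusters of Olfr291 and Olfr290 and of Olfr310 to Olfr292 were fully in LADs in all 4 lists.

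**Figure D5:**
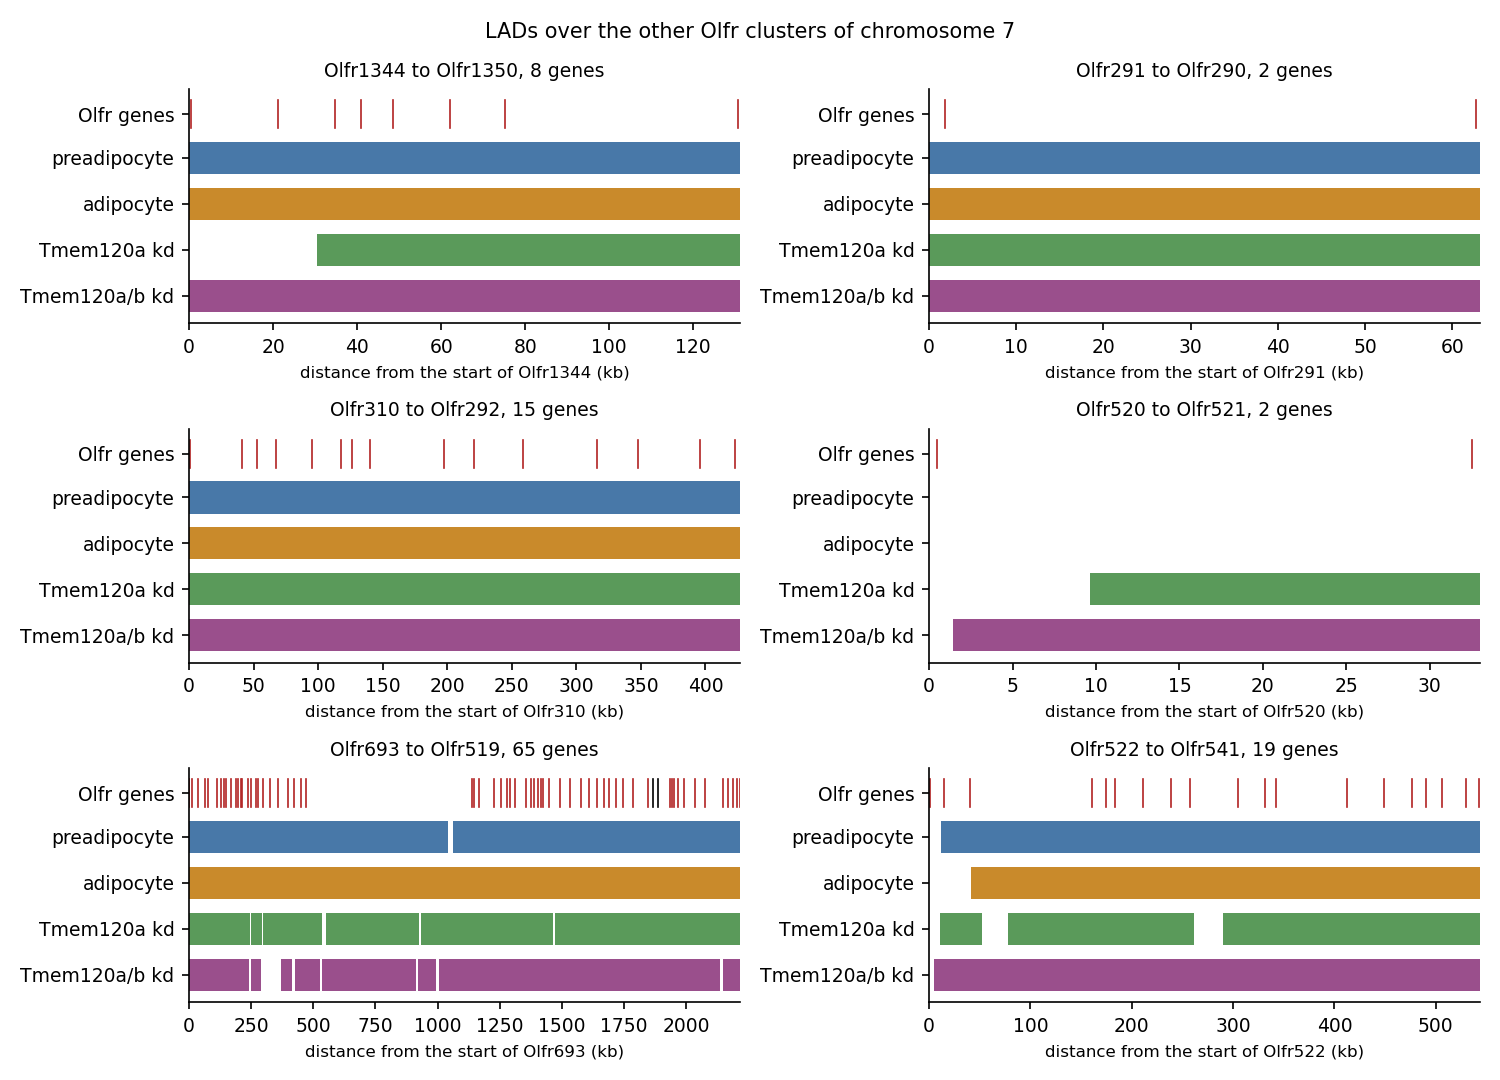
Maps of the other 6 Olfr clusters of chromosome 7, each with distance from the start of its first member in kb. Ticks are Olfr genes (class II in red, class I in black) and blocks are the LADs of each list (kd, knockdown). The Olfr520 and Olfr521 pair meets LADs in the knockdown lists alone, and the Olfr693 to Olfr519 cluster is split into 6 and 8 LADs in the Tmem120a and Tmem120a/b knockdowns.

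Members differed in base composition by state. The median GC content of the body was 44.8% for the 195 members in LADs in all lists, 46.5% for the 40 whose state differed, and 53.7% for the 5 in no list, where it ranged from 51.3% to 55.8%. Over all members it ranged from 31.1% to 60.4%, the highest being Olfr1344. The cluster spans had a GC content of 39.7%, against 43.0% for chromosome 7. GATC sites were slightly closer in the clusters, with a median fragment of 226 bp against 251 bp. The GATC fragment that holds the middle of a member had a median of 408 bp for members in LADs in all lists. It was 621.5 bp for those whose state differed and 267 bp for those in no list. A fragment taken at a point is more often a long one, so these values are not comparable with the medians over all fragments. On chromosome 7, 96.9%, 95.2%, 98.7% and 98.6% of LAD borders fell at a GATC in the 4 lists. The part of base composition and fragment length in the state was not tested.

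Receptors of near-identical sequence can share reads, and how the authors placed such reads is not given in the sources used here. Another member at 95% protein identity or more existed for 33 members, of which 30 were in LADs in all 4 lists. Among the 40 that differed, only Olfr671, Olfr675 and Olfr709-ps1 had such a copy. Without those 33 members, none of the counts moved by over 1.5 times. Few of the 33 differed between lists, so the counts had little room to move. The part of shared reads in the state was not tested.

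The class I genes outside the class I cluster had close relatives inside it. Olfr503 was most like Olfr658 (93.5% protein identity), and Olfr504 most like Olfr657 (92.5%), across 3897 and 3924 kb. Olfr503 and Olfr504, within class II genes, had 100% of the body in a LAD in all 4 lists. The border nearest to the middle of Olfr503 was 270.3 kb away, in the Tmem120a/b knockdown. Olfr657 and Olfr658 were at 0% before and 100% after differentiation, 100% upon Tmem120a knockdown and 0% upon Tmem120a/b knockdown. Over all 240 members, 185 had the same state as their closest relative, among them 30 of the 33 with a copy at 95% identity. All 30 were in a LAD in all 4 lists, as were 195 of all members, so a shared state was common to begin with. Of the 40 members whose state differed between lists, 3 shared the state of their closest relative. Of the 13 whose closest relative lay in another cluster, 2 shared it. Most closest relatives lay in the same cluster, so likeness and place cannot be told apart. The sequences at the annotated gene starts of Olfr657 and Olfr504 are printed as an example, a pair chosen after its states were seen. Without gaps, 287 of 300 bases (95.7%) are the same. The genes lie in different clusters, and the part of sequence in the state of either gene was not tested. In both, the annotated gene start is the start codon ATG, so the window lies around the coding start and need not hold the promoter. They run from 250 bases before to 50 after the gene start in RefSeq (GRCm38.p6, chr7:104635426-104635725, plus strand, and chr7:108565744-108566043, minus strand). Capitals mark the motifs TAATTA and TATAAA (or its reverse complement TTTATA, with overlapping matches merged).
Olfr657 gene start: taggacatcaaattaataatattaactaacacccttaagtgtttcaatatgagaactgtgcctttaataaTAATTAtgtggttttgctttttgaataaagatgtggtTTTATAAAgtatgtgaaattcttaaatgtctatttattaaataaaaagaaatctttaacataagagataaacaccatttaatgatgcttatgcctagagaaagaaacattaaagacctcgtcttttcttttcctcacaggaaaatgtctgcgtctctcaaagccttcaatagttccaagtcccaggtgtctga
Olfr504 gene start: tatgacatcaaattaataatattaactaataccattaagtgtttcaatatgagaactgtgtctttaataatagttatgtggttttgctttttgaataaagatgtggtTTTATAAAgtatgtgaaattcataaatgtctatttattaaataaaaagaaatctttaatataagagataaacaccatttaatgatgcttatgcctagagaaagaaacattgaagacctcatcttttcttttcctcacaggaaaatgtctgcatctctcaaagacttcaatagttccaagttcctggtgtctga

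Of the 240 members, 203 had a RefSeq window around the gene start by symbol. The annotated start was an ATG in 154 of these (75.9%), against 5.83% of the 32851 windows of all genes, so most member windows lie around a coding start and are unlike those of other genes. TAATTA, a homeodomain core motif read on both strands as a palindrome, was in 13.8% of them against 5.29% of all windows. Among windows that start at an ATG it was in 15.6% of members' and 11.9% of all. TATAAA, on either strand, was in 41.9% against 13.6%, and among windows that start at an ATG in 40.9% against 29.3%. The windows of all genes include those of the members. How many Olfr genes of other chromosomes are among those that start at an ATG was not counted. The palindromic core motif of EBF factors was in 0.493% against 0.904%. In the 32 members with a window whose LAD state differed between lists, TAATTA was in 15.6% and TATAAA in 37.5%. These are matches of letters in a window and are not sites of binding.

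The genes of other families inside the clusters did not all follow the receptors. Of 40 such genes, 26 were in a LAD before and 29 after differentiation, 26 upon Tmem120a knockdown and 23 upon Tmem120a/b knockdown, with 20 in all lists and 8 in none. The Hbb genes (5), which encode β-globins, were in LADs in all lists. The Trim genes, antiviral ubiquitin ligases, numbered 13 entries (Trim30b is annotated as a pair of genes), and 2, 4, 4 and 1 of them were in a LAD. None of these was in a LAD in all lists and 6 were in none. Most of the Trim genes sit between Olfr649 and Olfr651, where the adipocyte list had its longest open stretch of 180 kb (chr7:111340953-111520751). A stretch of 118 kb among them (chr7:111402761-111520751) was outside LADs in all 4 lists. The open stretch of 701 kb in the Tmem120a/b knockdown held this block and the receptors next to it on either side. Within 500 kb outside the clusters, 136 other genes had 34, 32, 32 and 38 in a LAD and 91 in none.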

How the data were processed

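The authors mapped reads from 8 libraries, 1 LaminB1-Dam and 1 Dam library for each of 4 conditions, to mm9, took log ratios per DpnI fragment and segmented them. BWA and limma are named in the submitters' processing notes, with no version given in the sources used here. They deposited 4 lists of LADs and 2 lists of differential regions as positions only, with no score, ratio or depth. The shortest LAD was 15.0 kb and the shortest differential region 8.04 kb, so smaller domains cannot be read, whereas gaps between LADs can be shorter. Starts counted from 0 were changed to count from 1.

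Genes came from GENCODE vM1 on mm9 (240 members, of 22367 protein-coding genes). Clusters joined members within 1 Mb. Receptor class came from translated GENCODE coding sequences, as no protein table was used here (Biopython 1.88, global alignment with gap costs of 11 and 1, average linkage, 2 groups), class I being the group of Olfr78 and Olfr544. Windows around gene starts were from RefSeq (GRCm38.p6), and their coordinates were not mixed with mm9. Interval counts used Python 3.11.15 and numpy 2.4.6 and were tested on simulated data. With 1 list per condition no test was made. The members and lists were chosen with earlier results of these data known.

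Genes were named by rule: the first and last member of each cluster, every member that changed state between a pair of lists (at most 25, by change in body share; all 28 of the largest comparison were named after their values were seen), every member in a differential region, and 16 receptors with a known role. Olfr503, Olfr504, Olfr547, Olfr591 and Olfr648 were named for their borders, LADs or closest relatives after values were seen. Alternatives were other overlap rules, minimum LAD lengths of 30 and 100 kb, closing of gaps under 50 kb, other joining distances and all biotypes.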

Additional observations from a re-analysis of the deposited data

How the results depend on the processing

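Of 146 values recomputed under an alternative, 134 stayed close to the reported one (counts within 1.5 times, shares of span within 10%) and 12 moved. The 12 were in 2 settings: 7 of 20 values moved with LADs of at least 100 kb, and 5 of 20 with gaps under 50 kb closed. Counts that hold most members cannot rise 1.5 times, and several alternatives add or drop few members. Many of the 146 values thus had little room to move, and the tally is no measure of how firm the lists are. With only LADs of at least 100 kb, members in a LAD in adipocytes and not in preadipocytes numbered 27, those not in the Tmem120a knockdown 30 and those not in the Tmem120a/b knockdown 46, while members in a LAD in the Tmem120a knockdown and not in adipocytes numbered 0. LADs counted per cluster and summed were then 9 in preadipocytes, 14 upon Tmem120a knockdown and 13 upon Tmem120a/b knockdown. In all lists but the last, these sums count the LAD shared by the Olfr291 to Olfr290 and Olfr310 to Olfr292 clusters for each cluster. With gaps under 50 kb closed, members in a LAD in preadipocytes and not in adipocytes numbered 3, and those in adipocytes and not in the Tmem120a knockdown 3. LADs counted per cluster and summed were then 9, 10 and 10 in the same lists and 7 in adipocytes. The shared LAD was again counted for each cluster, except in the Tmem120a/b knockdown. These 2 settings drop LADs or gaps by their construction. Members at 50% overlap, transcription starts, LADs of at least 30 kb, every biotype (261 genes), joining within 500 kb or 2 Mb, and, chosen after seeing the data, leaving out near-identical copies (207 genes left) or symbols marking pseudogenes (233 left) moved none of the values run under them. No paired analysis was possible because no test was made. With 1 list per condition, a shift between conditions and a shift between libraries cannot be told apart, and depth is unknown, so it cannot be said which borders are precise.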
